A study of Mus musculus with 4 samples.

Results

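The genes described here are 10 genes that mark radial glia and neural stem cells: Nes, Vim, Fabp7, Prom1, Ptprz1, Hopx, Zbtb20, Msi1, Ednrb and Nr2e1. They were examined in a list of chromatin interactions from H3K27ac HiChIP, an assay that ligates DNA fragments lying near each other in the nucleus and enriches the ligated pairs for acetylated lysine 27 of histone H3, a mark of active promoters and enhancers. An interaction was assigned to a gene when either of its 10 kb anchor bins overlapped the gene body or the 2.5 kb around either gene end, a stretch called the gene window here. By this rule the 10 genes held 105 of the 99041 listed interactions, and no interaction belonged to more than 1 of them. The genes were proposed by name, with earlier results of these data known.

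The labels describe 2 libraries of mouse YAP-M tumor, from brain and with the genotype YAP-M fusion, and 2 of mouse neural stem cells kept in culture (mNSC), labelled neural progenitor cells of wild-type genotype and grown with EGF and basic FGF. The same H3K27ac antibody is given for all 4 libraries, and no age, sex or other allele is given. YAP-M denotes a fusion of YAP1, the transcriptional co-activator of the Hippo pathway, with MAMLD1. The list carries the letters YM in its name, taken here as YAP-M, but no column ties a row to a library. An interaction list for mNSC was not analysed here, so these genes were not compared between tumor and stem cells. With 1 list and no read numbers, there is no spread between replicates and the depth is unknown: an unlisted contact was not detected at this depth. Counts below are of listed pairs of bins, and they say nothing of the amount of RNA. A bulk list also cannot tell which cells of the tissue carried a contact.

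Radial glia are the neural stem cells of the developing brain. Their long fibres span the wall of the ventricle, they divide to give neurons and later glia, and ependymal cells descend from them; ependymoma has often been described as resembling radial glia. The genes fall into groups by role. Nes and Vim encode intermediate filament proteins, Fabp7 a fatty acid carrier of the radial glial cytoplasm, Prom1, Ptprz1 and Ednrb proteins of the cell surface, Zbtb20, Nr2e1 and Hopx nuclear regulators, and Msi1 an RNA-binding protein.

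All 10 genes had at least 1 interaction, against 67.8% of the 20665 autosomal coding genes. Counts were 35 at Zbtb20, 26 at Vim, 9 at Fabp7, 7 each at Nes, Hopx and Msi1, 5 each at Ptprz1 and Ednrb, 3 at Nr2e1 and 1 at Prom1. Vim and Zbtb20 together held 61 of the 105 interactions (58.1%). The median was 7 per gene, against 3 over all coding genes, and 6 of the 10 genes reached at least 7 interactions, as did 32.8% of coding genes. Since 7 is the median of the 10 genes themselves, nothing is read from that count, which was 6 with a window of 5 kb and 1 to 4 under the other 8 settings tried. The 10 genes were proposed with earlier results of these data known, so these figures are a description and carry no test. Neighbouring bins are often listed together. Interactions were therefore also joined into contacts where both anchors were the same or next to those of another interaction. This left 39 contacts, with a median of 2.5 per gene against 2 over all coding genes. Merging took Vim from 26 to 2, and left Zbtb20 first with 14.

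**Figure D1:**
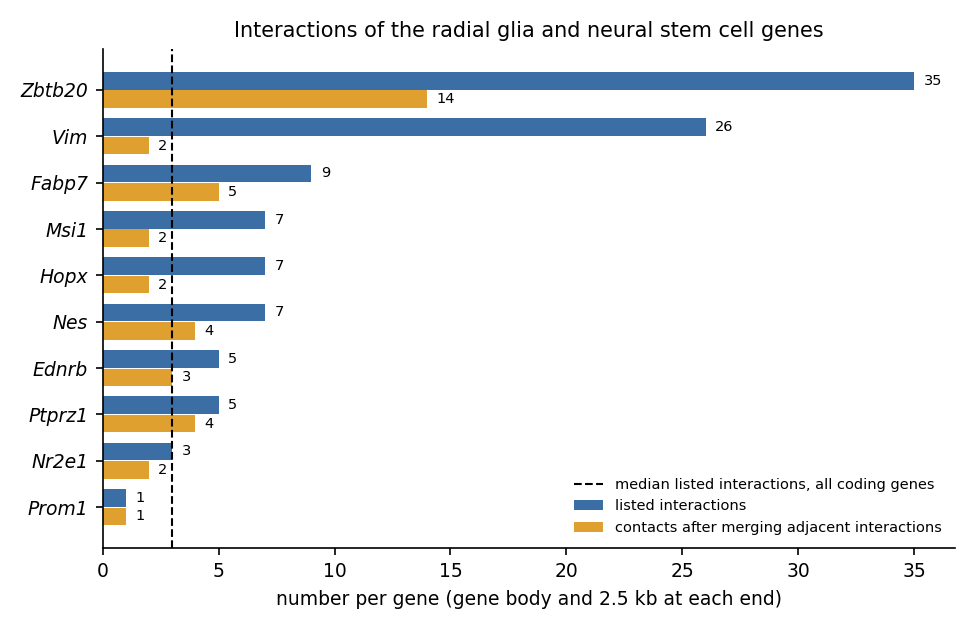
Number of listed interactions (blue) and of contacts after merging of adjacent interactions (orange) for each of the 10 genes, counted over the gene body and 2.5 kb at each end; the dashed line is the median of listed interactions over all coding genes, 3. Zbtb20 and Vim stand apart in listed interactions with 35 and 26, but merging leaves 2 contacts at Vim.

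Gene length differed widely, from 3.5 kb for Fabp7 to 758.7 kb for Zbtb20, and longer windows offer more bins. Per 10 kb bin of the window, Vim had 13.0 interactions, Fabp7 4.50, Nes 2.33, Hopx 1.75, Ednrb 1.25, Nr2e1 0.75, Msi1 0.636, Zbtb20 0.455, Ptprz1 0.263 and Prom1 0.0833. The median coding gene had 0.667 per bin. On this scale Vim lay above 99.3% and Fabp7 above 90.8% of coding genes, whereas Zbtb20 lay above 42.7%. With coding genes divided into 10 equal classes by length, Vim exceeded 98.2% of its class, Fabp7 87.0% and Zbtb20 82.9%. The long genes Ptprz1 and Prom1 exceeded 35.3% and 17.6% of theirs, where the median counts were 10 and 6. High counts were thus found at the shortest as well as the longest of these genes, and the lowest count stood at a gene of 108.4 kb.

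**Figure D2:**
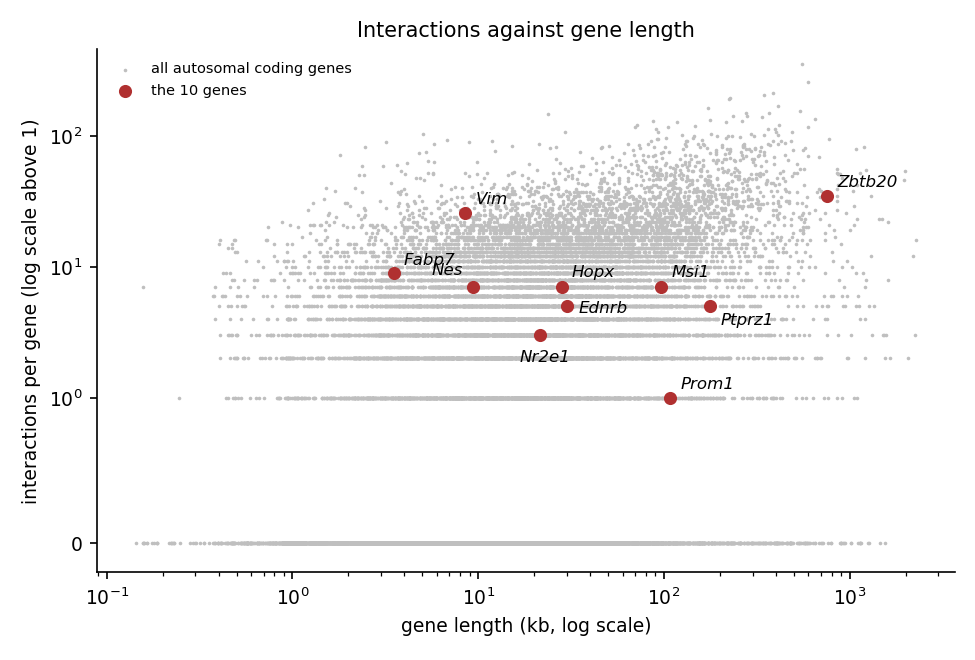
Interactions per gene (vertical axis, logarithmic above 1) against gene length in kb (horizontal axis, logarithmic), with every autosomal coding gene in grey and the 10 genes in red. Vim (8.5 kb, 26 interactions) sits above 98.2% of the genes in its length class, and Prom1 (108.4 kb, 1 interaction) above 17.6%.

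Vimentin and nestin are the filament proteins by which radial glia and neural stem cells are most often stained, and their contacts took different forms. Vim lies on the plus strand of chromosome 2 (13574311 to 13582826) and covers 2 bins with its window. The bin from 13570001 to 13580000, which holds the annotated start, had 20 interactions, more than 98.9% of the 56427 anchors, against a median of 2. The next bin, with the rest of the gene, had 6. All 26 partners lay upstream, 100 to 310 kb away, in 20 of the 21 bins from 13270001 to 13480000. Cubn, which encodes the endocytic receptor cubilin, overlaps every one of these bins, and the farthest bin also holds ends of Cubn and of Rsu1, the gene of Ras suppressor protein 1. Trdmt1, a methyltransferase gene, lies between Vim and Cubn and was passed over by all 26. Trdmt1 itself had 17 partner bins, and all 17 were among the 20 of Vim, the largest overlap found for any of the 10 genes. High counts were not particular to Vim in this stretch. Over their own, longer windows, Trdmt1 had 37 interactions, Cubn 127 and Rsu1 26. Trdmt1 also merged into 2 contacts. With a window of 5 kb the count at Vim was 32.

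Nes lies on the plus strand of chromosome 3 (87971093 to 87980451). Its 7 interactions formed 4 contacts. The bin from 87960001 to 87970000, which ends just upstream of the annotated start, had 5 interactions, the bin that holds the start had 1, and the bin that holds the 3′ end had 2; the last of these also holds an end of Bcan, the gene of the proteoglycan brevican. One interaction joined the bin just upstream of Nes to the bin of its 3′ end. The other 6 all had their partner at an end of another coding gene. Of these, 2 reached the bin of Crabp2, a retinoic acid-binding protein gene, and Isg20l2, and 4 reached bins from 88060001 to 88090000 with ends of Ttc24, Iqgap3 and Naxe, 100 to 120 kb away and past 4 or 5 coding genes. Ttc24 had an end in the partner bin of 4 interactions and Iqgap3, a scaffold protein gene of proliferating cells, in that of 3. The count at Nes depended on its bins: with a window of 0 kb it was 3, and with the bin midpoint inside the window it was 1.

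The bases upstream of these 2 starts are shown because the Vim start lies in the most connected bin of any of the 10 genes, whereas the Nes start lies in a bin with 1 interaction. Both are the 250 bases before the RefSeq start on the plus strand (GRCm38.p6, the assembly of mm10), Vim at chr2:13574061-13574310 and Nes at chr3:87970843-87971092. Capitals mark TTGGC, the core of the nuclear factor I motif, found at 93 and 16 bases before the start of Vim; no searched motif was found in the Nes window.
Vim: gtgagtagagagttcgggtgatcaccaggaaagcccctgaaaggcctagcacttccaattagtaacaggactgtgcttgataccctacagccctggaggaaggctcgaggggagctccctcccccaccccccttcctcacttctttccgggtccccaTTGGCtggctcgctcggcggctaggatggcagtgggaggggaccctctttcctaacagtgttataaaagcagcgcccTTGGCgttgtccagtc
Nes: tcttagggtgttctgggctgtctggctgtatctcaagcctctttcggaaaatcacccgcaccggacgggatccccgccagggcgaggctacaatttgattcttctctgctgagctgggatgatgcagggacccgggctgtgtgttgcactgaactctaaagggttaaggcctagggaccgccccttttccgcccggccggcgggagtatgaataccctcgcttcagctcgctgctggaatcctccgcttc

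Fabp7, also called brain lipid-binding protein, is a marker of radial glia in the embryonic brain and of astrocytes and stem cells later. The gene spans 3.5 kb on the plus strand of chromosome 10 (57784923 to 57788450) and had 9 interactions in 5 contacts. The bin with the annotated start had 4 and the next bin 5, and the next bin also holds an end of Smpdl3a, a phosphodiesterase gene. Upstream partners numbered 7 and downstream partners 2. The nearest were at 30 to 50 kb, among them 2 interactions with an end of Pkib, which encodes an inhibitor of protein kinase A. More distant partners were 2 bins between genes at 210 kb and an end of Hsf2, a heat shock factor gene, at 310 kb. The interactions with Hsf2 and with the bin from 57580001 to 57590000 came from the bin that also holds an end of Smpdl3a. That bin begins past the 3′ end of Fabp7. Smpdl3a shared 5 and Pkib 4 of the 7 partner bins of Fabp7. Without the bin that Smpdl3a also covers, Fabp7 kept 4 interactions, the count also given by a window of 0 kb.

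The window upstream of Fabp7 is given because Fabp7 is known as a target of Notch signalling, which acts through the DNA-binding protein RBPJ. It covers chr10:57784673-57784922 on the plus strand. Capitals mark TTCCCA, the reverse complement of the searched RBPJ motif TGGGAA, at 249 bases before the start, and the nuclear factor I core TTGGC at 55 bases.
Fabp7: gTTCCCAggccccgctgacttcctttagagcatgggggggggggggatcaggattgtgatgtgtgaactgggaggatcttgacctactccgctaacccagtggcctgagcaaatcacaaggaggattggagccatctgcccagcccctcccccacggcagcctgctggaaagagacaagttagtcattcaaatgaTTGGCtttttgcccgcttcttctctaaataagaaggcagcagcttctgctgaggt

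The surface protein genes had 1 to 5 interactions, with Prom1 below and Ptprz1 and Ednrb above the median of 3 over all coding genes. Prom1 encodes prominin-1 (CD133), a membrane protein used to sort neural stem and tumor cells. Its 1 interaction joined the bin at its 3′ end (chromosome 5, 43990001 to 44000000) to an end of Bst1, an ectoenzyme gene 150 kb away, past Cd38 and Fgfbp1. The bins that hold its 2 annotated starts, at 44101736 and 44094768, had 0 interactions. Ptprz1, a receptor-type phosphatase abundant on radial glia, spans 177.6 kb of chromosome 6 (22875315 to 23052916, plus strand) and had 5 interactions in 4 contacts. The bin with its start had 3, and 1 each came from 2 bins inside the gene. All 5 partners lay upstream, in 3 bins between coding genes, and the bin from 22790001 to 22800000 took 3 of the 5. Ptprz1 was the nearest coding gene to each of these bins, at 35.3 to 75.3 kb.

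Ednrb encodes the endothelin receptor type B, present on radial glia and astrocytes. It lies on the minus strand of chromosome 14 (103814615 to 103844508) and had 5 interactions in 3 contacts. The bin with the annotated start had 3 and the neighbouring bin inside the gene had 2. Both bins contacted the same pair of bins downstream, from 103710001 to 103720000 and from 103770001 to 103780000, and the start bin also contacted a bin 50 kb upstream. None of the 3 partner bins overlapped a coding gene. At Ptprz1 and Ednrb, and at Hopx described next, all partners lay between coding genes within 170 kb, and at least 1 distal bin was met by more than 1 bin of the gene.

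Among the nuclear regulators, Hopx and Nr2e1 had one-sided contacts, and Zbtb20 had contacts at its 5′ end and in the part toward its 3′ end. Hopx, an atypical homeodomain protein of outer radial glia and quiescent stem cells, lies on the minus strand of chromosome 5 (77086986 to 77115123). RefSeq gives it 2 starts. The bin of the outer start at 77115123 had 0 interactions, and the bin of the inner start at 77095267 had 6. One further interaction came from the bin between them. All 7 partners lay upstream, 40 to 100 kb away, in 6 bins between Hopx and the next coding gene, Spink2, and merged into 2 contacts. Because neither bin with a contact holds an end of the gene, Hopx was the only one of the 10 without an interaction when gene ends alone were counted.

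The 250 bases before each Hopx start are set side by side, since the contacts fell on the bin of 1 start. The inner window lies at chr5:77095268-77095517 and the outer at chr5:77115124-77115373, both read on the minus strand. Capitals mark TTGGC, at 160 bases before the outer start. The inner window held 18 CpG dinucleotides and the outer 8, against a median of 10 over all coding windows.
Hopx inner start: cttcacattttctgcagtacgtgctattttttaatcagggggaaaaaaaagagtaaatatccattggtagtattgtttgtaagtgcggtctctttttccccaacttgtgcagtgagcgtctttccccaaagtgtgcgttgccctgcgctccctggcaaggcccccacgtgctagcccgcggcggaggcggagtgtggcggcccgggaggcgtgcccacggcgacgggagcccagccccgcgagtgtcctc
Hopx outer start: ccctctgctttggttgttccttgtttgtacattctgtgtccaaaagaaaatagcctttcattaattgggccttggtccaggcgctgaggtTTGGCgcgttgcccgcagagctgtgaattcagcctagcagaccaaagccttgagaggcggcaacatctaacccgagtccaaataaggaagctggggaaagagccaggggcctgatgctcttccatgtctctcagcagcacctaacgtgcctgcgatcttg

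Zbtb20 encodes a zinc finger repressor with roles in hippocampal neurons and in glia. It is the longest of the genes, at 758.7 kb on chromosome 16 (42875689 to 43634392, plus strand), and had 35 interactions in 14 contacts from 12 of the 77 bins of its window. The bins with most were those from 42910001 to 42920000 (14), 42900001 to 42910000 (9), 43570001 to 43580000 (7) and 42870001 to 42880000 (6). The bins below 42920001 lie at or just inside the low-coordinate, 5′ end of the gene, and the other one lies toward its 3′ end. Both anchors lay inside the window in 16 interactions, and 14 of these joined the 5′ bins to bins between 43360001 and 43600000, 490 to 700 kb apart. Outside the window, 16 partners lay upstream and 3 downstream. Of the upstream partners, 5 were at the end of Lsamp, a neural cell adhesion gene, 3 in the bin beside it, 6 inside Gap43, which encodes a growth cone protein, and 2 between coding genes just upstream of Zbtb20. The 3 downstream partners were 1 bin inside Drd3, a dopamine receptor gene, past Tigit. No bin from 42920001 to 43330000 had an interaction. Among them is the bin of the 1 annotated start used for this gene, at 43247284. That start lies inside the gene, whose span begins at 42875689, in the bin from 42870001 to 42880000 with 6 interactions. All 28 interactions of at least 500 kb among the 105 were those of Zbtb20, 26.7% of the total against 9.23% over all coding genes.

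Nr2e1 (Tlx) is an orphan nuclear receptor that maintains adult neural stem cells. It lies on the minus strand of chromosome 10 (42561963 to 42583590) and had 3 interactions in 2 contacts. The bin with its start had 2 and the next bin 1. All 3 partners lay downstream, 170 to 240 kb away, in 2 bins inside Afg1l, a mitochondrial ATPase gene, past Snx3. No other coding gene had a partner in either of those bins.

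Msi1, Musashi-1, binds messenger RNA and restrains the translation of the Notch inhibitor Numb in neural stem cells. The gene spans 96.6 kb of chromosome 5 (115359059 to 115455698) and had 7 interactions in 2 contacts. In 5 of them both anchors lay inside the window, and 4 of these 5 met in the bin from 115430001 to 115440000. The remaining pair had partners at lower coordinates, 1 in a bin with ends of Coq5 and Rnf10 at 80 kb and 1 in a bin with ends of Cox6a1, Gatc and Triap1 at 100 kb. The low-coordinate bin of Msi1 also holds an end of Cox6a1. Counting only interactions that left the window, Msi1 had 2.

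**Figure D3:**
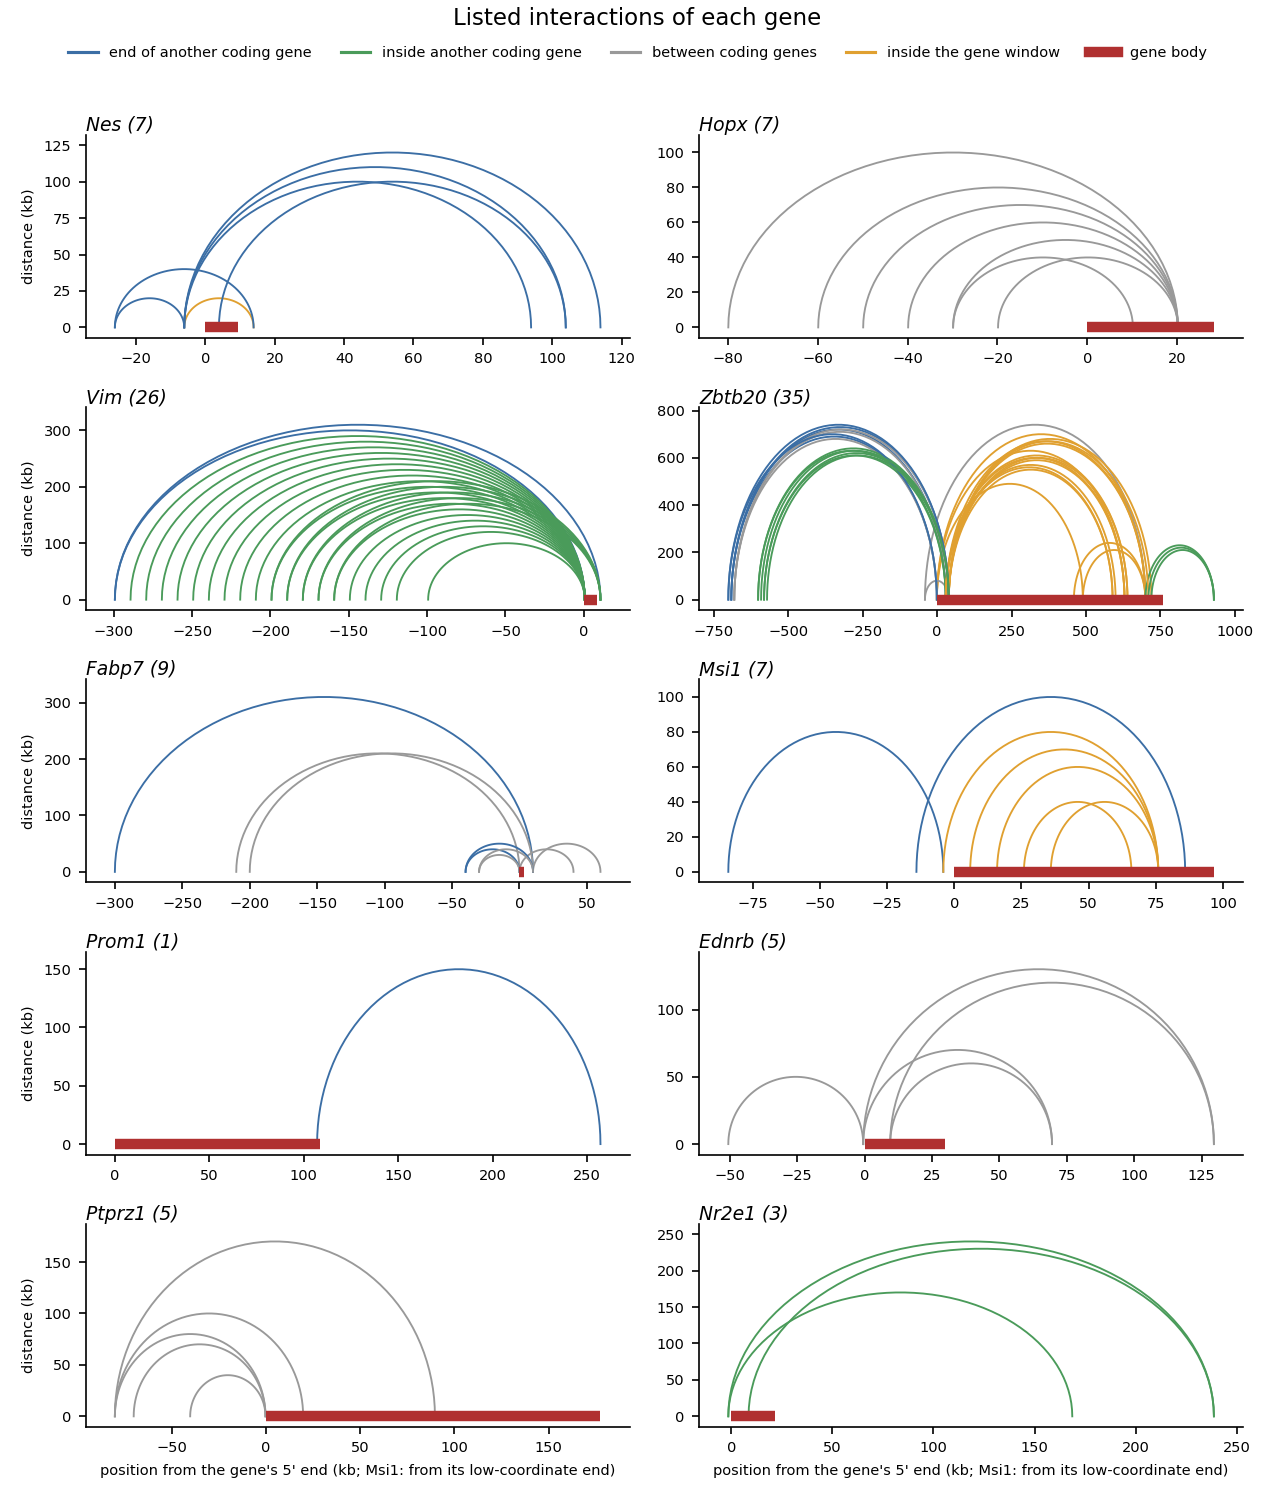
Every listed interaction of each gene as an arc between the centres of its 2 bins. The horizontal axis is the position in kb from the 5′ end of the gene (for Msi1, from the low-coordinate end), the height of an arc is its distance in kb, the red bar is the gene body, the colour gives the kind of partner and the number of interactions is beside the name; Vim, Ptprz1 and Hopx have partners upstream only, and the tallest arcs, of 740 kb, are at Zbtb20.

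Over the 105 interactions, 19 (18.1%, exact 95% interval 11.3 to 26.8%) had a partner at an end of another coding gene, 36 (34.3%, 25.3 to 44.2%) inside another coding gene and 28 (26.7%, 18.5 to 36.2%) between coding genes, and 22 (21.0%, 13.6 to 29.99%) lay wholly inside the gene window. Counted the same way for every coding gene, the shares of 148237 gene and interaction pairs were 43.4%, 19.2%, 28.04% and 9.39%. These exact (Clopper-Pearson) intervals cover counting error only and are too narrow, since adjacent interactions are not independent. The shares rested on a few genes. Vim held 24 of the 36 partners inside other genes, and without Vim that share was 15.2%. Zbtb20 held 16 of the 22 within windows, and without Zbtb20 that share was 8.57%. The share between coding genes was 35.4% without Vim, 32.9% without Zbtb20 and 52.3% (23 of 44) without both. The smaller share at ends of other genes was 21.5% without Vim, 20.0% without Zbtb20 and 27.3% without both.

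**Figure D4:**
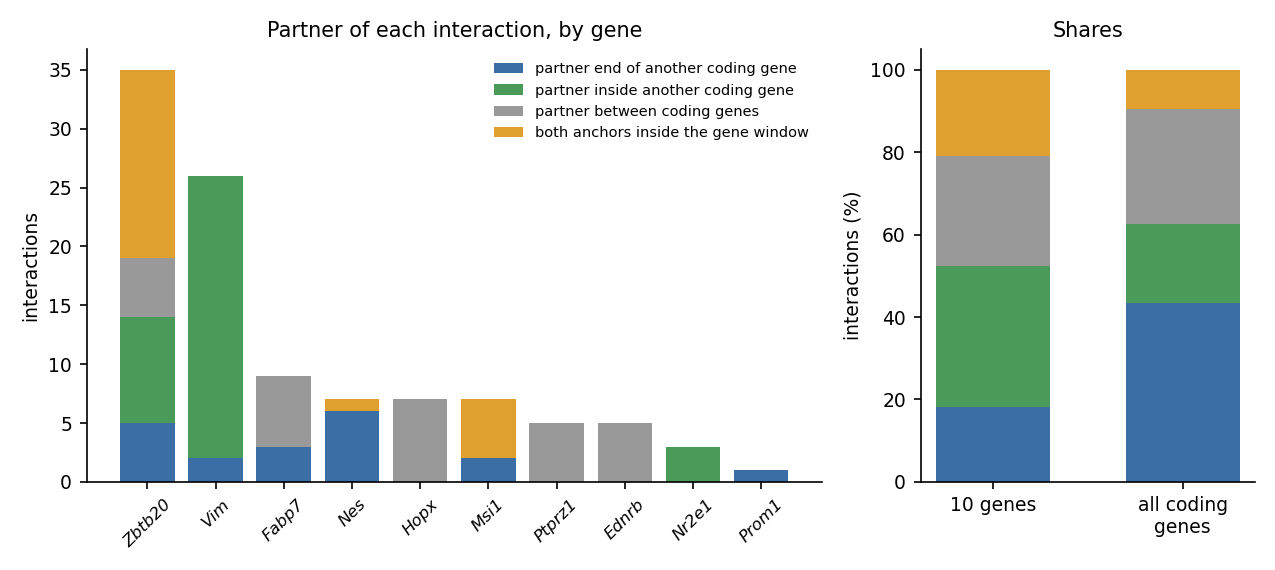
Left, number of interactions of each gene by the kind of partner bin; right, the same kinds as percentages of the 105 interactions of the 10 genes and of the 148237 pairs over all coding genes. Partners inside other genes are mostly those of Vim (24 of 36), and Ptprz1, Hopx and Ednrb have partners between coding genes only.

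For the 9 genes whose strand RefSeq gives in the promoter table, 64 of 81 interactions that left the window went upstream (79.0%, exact 95% interval 68.5 to 87.3%), against 53.5% over all coding genes. Without Vim the share was 69.1%, and without Vim and Zbtb20 it was 61.1%. By gene, Vim, Ptprz1 and Hopx had upstream partners only, Fabp7 had 7 of 9 and Zbtb20 16 of 19, whereas Nes had 2 of 6, Ednrb 1 of 5 and Nr2e1 and Prom1 had 0. The median distance between anchors was 200 kb (quartiles 80 and 560 kb), against 170 kb (quartiles 100 and 300 kb) over all coding genes. The upper quartile rested on Zbtb20, which held every interaction of at least 500 kb. Its own median was 630 kb, and those of the other genes ran from 50 kb at Fabp7 to 230 kb at Nr2e1. In 50 of the 105 interactions at least 1 coding gene lay between the anchors, of which 26 were those of Vim past Trdmt1. The same share was not counted over all coding genes, so nothing is read from this count. Beyond Vim and Fabp7, no gene shared more than 2 partner bins with any other gene, though some had few partner bins. Bcan shared 2 of the 4 of Nes and Mef2d 1, and Cd38 and Fgfbp1 each shared the 1 of Prom1. Paics and Srp72 each shared 1 of the 6 of Hopx. Coq5 and Cox6a1 each shared 1 of the 2 of Msi1, and Scel 1 of the 3 of Ednrb. The windows of Bcan, Smpdl3a and Cox6a1 have a bin in common with those of Nes, Fabp7 and Msi1. Interactions of such a bin count for both genes, so partners shared through it follow from the counting. No coding gene shared a partner bin with Ptprz1, Zbtb20 or Nr2e1.

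Contacts were next counted at promoters alone. Within 2.5 kb of an annotated start, 7 of the 9 genes with a start had an interaction, against 60.1% of 16457 coding genes, and Prom1 and Zbtb20 had 0. Those counts were 20 at Vim, 6 each at Nes and Hopx, 4 at Fabp7, 3 each at Ptprz1 and Ednrb and 2 at Nr2e1. At gene ends alone, 9 of 10 genes had an interaction, against 65.7% of coding genes, with a median of 3 per gene against 2. The order of the genes changed with the choice: Zbtb20 had 35 over its window, 6 at its ends and 0 at its annotated start. The start used for Zbtb20, at 43247284, lies inside the gene, whose span begins at 42875689. The bin that holds the beginning of the span, from 42870001 to 42880000, had 6 interactions. The 0 at Zbtb20 thus holds for the start used and not for the beginning of the gene.

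The 250 bases before each of the 11 annotated starts of 9 genes were searched for short motifs on both strands. Motifs were those of TEAD factors (GGAATG), the DNA-binding partners of YAP, of nuclear factor I (the core TTGGC, and the full palindrome, which contains that core), described as a partner of YAP1-MAMLD1, and of AP-1 (TGANTCA), RBPJ (TGGGAA) and SOX factors (ACAAAG). The core of nuclear factor I stood in 5 of 11 windows (Vim, Fabp7, Ednrb and 1 each of Prom1 and Hopx), against 43.1% of 20085 windows of coding genes. RBPJ letters stood in 4 of 11 (Fabp7, Nr2e1, Zbtb20 and 1 of Prom1), against 21.0%, and AP-1 letters in both windows of Prom1 and no other, against 6.18%. TEAD letters were in 0 of 11 windows and SOX letters in 0 of 11, against 11.5% and 14.7% of all windows, and the palindrome in 0 of 11, against 0.0349%. A match is a run of letters, not a bound site, and 10 kb bins cannot place a contact on a window of this size.

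Other genes of neural stem cells and radial glia, from a list of 32 that does not contain the 10, had an interaction in 30, with a median of 15.5. Over all coding genes, 67.8% had an interaction and the median was 3. Of the 32, 22 reached at least 7 interactions, as did 32.8% of coding genes. Egfr, the growth factor receptor of activated stem cells, had 59, Hes1, a Notch effector, 50, and the receptor gene Fgfr2 36. The genes of that list without an interaction were Sox1 and Sfrp1. The median of the 10 genes lay between that of this list and that of all coding genes, and the difference was not tested. Markers of other cells that a brain tumor can hold also had interactions: 7 of 8 neuronal, 6 of 7 oligodendrocyte lineage, 8 of 8 microglial, 6 of 6 astrocyte, 5 of 6 ependymal and 5 of 6 endothelial genes. These shares stand beside 67.8% over all coding genes, and with 6 to 8 genes per list nothing is read from them. The medians of these marker lists ran from 2 for neurons to 9.5 for endothelium, and the median of the 10 genes fell inside that range. The lists lay closer together in merged contacts. Their medians were then 2.5 for the 10 genes, 4 for the other stem cell list and 1 to 3 for the marker lists. What other cells contributed to the interactions of the 10 genes was not tested.

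**Figure D5:**
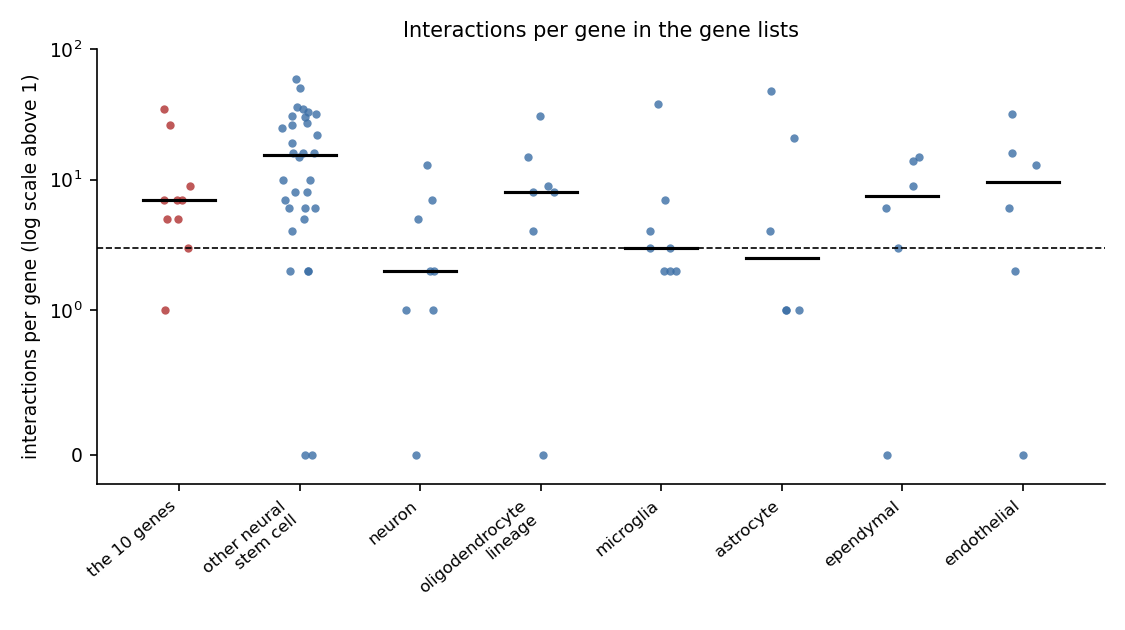
Interactions per gene (vertical axis, logarithmic above 1) for the 10 genes (red) and 7 other lists (blue); each point is a gene, the bar is the median of the list and the dashed line the median of all coding genes, 3. The other neural stem cell genes have a median of 15.5 and the 10 genes 7.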

How the data were processed

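HiChIP libraries were made with a micrococcal nuclease kit, per the labels' protocols, although the sample titles read H3K27ac-ChIP-seq. The submitters' processing notes name BWA and mm10. The authors' deposited list gives positions of 2 anchors per interaction and no count or score, per the file header; no caller, threshold or pooling is given in the sources used here. Gene spans, starts and promoter sequences came from NCBI RefSeq of GRCm38.p6, the assembly of mm10; all 10 genes matched by symbol, and 9 had entries in the promoter table. Interactions per gene, merged contacts, partners and motifs were computed with Python 3.11.15, numpy 2.4.6, pandas 2.3.3 and scipy 1.17.1, with counting and merging checked on simulated data. No test was run. The 9 other settings changed the window, the part of the gene, the overlap, merging, distance and shared bins; leaving out Vim or Zbtb20 was added after the data were seen. The genes and lists were chosen with earlier results of these data known. All 10 genes are named, with up to 3 genes at their partner ends, up to 2 that share most partner bins, those that share an end bin, and the 3 highest of the other stem cell list. Genes over, between or nearest to anchors, genes tied in these ranks, and Sox1 and Sfrp1 were named after their values were seen.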

Additional observations from a re-analysis of the deposited data

How the results depend on the processing

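No paired analysis was possible because 1 list without library columns was analysed. The 105 interactions of the 10 genes became 60 at gene ends only, 44 at annotated starts (9 genes) and 39 as merged contacts, and the median per gene became 3, 3 and 2.5; the other alternatives kept the total and the median within 1.5 times. Between 7 of 9 genes (annotated starts) and all 10 had an interaction. Of 89 single-gene counts under an alternative, 62 stayed within 1.5 times of the value reported and 27 did not, 3 of them at 0. Without Vim, partners inside other genes fell to 15.2%. Without both Vim and Zbtb20 they were 6.82%, those at other gene ends 27.3%, those between genes 52.3% and upstream partners 61.1%. Without Zbtb20, interactions inside the window were 8.57% and those of at least 500 kb 0% (0 of 70, exact 95% upper bound 5.13%); the latter were also 0% without both. Depth is unknown, so 0 interactions at a start means none detected.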

Other observations

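The partner bins of the 10 genes differed in how many other contacts they had. The 2 partner bins of Nr2e1 had 3 interactions in all, each of them with Nr2e1, and the 6 partner bins of Hopx had 8, of which 7 (87.5%) were with Hopx. At Ptprz1 the figure was 5 of 7 (71.4%), at Msi1 2 of 3 (66.7%), at Nes 6 of 11 (54.5%), at Fabp7 9 of 17 (52.9%) and at Zbtb20 19 of 46 (41.3%). The lowest shares, summed over bins, were 5 of 19 (26.3%) at Ednrb, 26 of 141 (18.4%) at Vim and 1 of 6 (16.7%) at Prom1. The busiest partner of Vim was the bin at the ends of Cubn and Rsu1, with 25 interactions. Among the 172 pairs of Vim partner bins 20 kb or more apart, 15 were themselves listed as interacting.

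Of the 28 interactions whose partner lay between coding genes, the contacted gene was the nearest coding gene to the partner bin in 14, against 24.2% of 41561 such pairs over all coding genes. The 14 were 5 at Ptprz1, 4 at Hopx, 3 at Ednrb and 2 at Zbtb20. Fabp7 was the nearest gene in 0 of its 6; Pkib, Serinc1 or Smpdl3a lay nearer to those bins.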
